A study of Homo sapiens with 4 samples.

Results

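The regions described here are the NSUN2 peaks that the deposited annotation placed between genes. They were every peak whose region was given as intergenic in the 2 peak lists, namely 2761 of 48104 peaks with lactate and 7219 of 95785 with ddH2O. Of the 116484 merged peaks that compare both lists, 9038 overlapped at least 1 of them by at least 1 base. Of those 9038, 9021 overlapped intergenic peaks alone, and 17 overlapped a peak inside a gene as well. A peak that the annotation put in an intron, exon or untranslated region (UTR) is called a genic peak below.

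The peaks came from RIP-seq of PANC-1, an established line of human pancreatic ductal adenocarcinoma, in which RNA co-precipitated with an anti-NSUN2 antibody (IP) was sequenced beside the RNA of the whole lysate (input). Wild-type cells received 30 mM sodium lactate for 24 h, for which the paper names L-lactate, or the vehicle ddH2O, and each condition had 1 IP and 1 input library, 4 libraries in all. No value therefore has a replicate error, the tests below compare the reads of 2 libraries and not the conditions, and all intervals are 95% Wilson intervals that cover counting error only. Both conditions are a single line without altered alleles, so the peaks describe these cells alone. The IP libraries gave 1945000 reads (lactate) and 3536821 reads (ddH2O) in the merged-peak windows outside the mitochondrial ribosomal RNA MT-RNR2 and the nuclear RNA MALAT1, and the depth of the inputs is unknown. With the 2 windows of these RNAs included, the totals were 9756124 (lactate) and 9553770 (ddH2O) reads. Markers of the line (4 keratins, EPCAM, SOX9, MUC1 and the mesenchymal VIM) carried peaks at 5 of 8 genes with lactate and 7 of 8 with ddH2O, where VIM was 1 of the 7, against 1 of 7 and 2 of 7 markers of leukocytes, endothelium, stroma, islets and acini.

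NSUN2 is a nucleolar and nuclear enzyme that methylates cytosines in RNA to 5-methylcytosine (m5C). Its best known substrates are transfer RNAs and vault RNAs, which are short transcripts of RNA polymerase III, and it also methylates messenger RNAs, where many of its sites lie in a C followed by a G-rich stretch, written CNGGG. RNA from between annotated genes can be read-through beyond a gene's end, an unannotated long non-coding RNA, or RNA of a repeat or gene copy, and a RIP-seq peak does not by itself tell these apart.

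Sequence was used here only around RefSeq gene starts, so the printed ones are from intergenic peaks that reached into the 250 bases before a RefSeq gene start. Only 5 lactate peaks (0.181%) and 51 ddH2O peaks (0.706%) overlapped any of the 35116 RefSeq promoter windows, which run from 250 bases before a start to 50 after it. The 4 stretches of highest score with at least 100 shared bases outside every RefSeq gene were chosen after their values were seen, and all 4 came from the ddH2O list. The peak at LOC105374151 ran across the gene start into the gene, and those before CELSR3, YDJC and CC2D2A stopped 109, 147 and 54 bases short of it. The stretches are given on the gene's strand, 5′ to 3′, from RefSeq on GRCh38.p14, with capitals for CNGGG.
CELSR3 (chr3:48662996-48663136, minus strand): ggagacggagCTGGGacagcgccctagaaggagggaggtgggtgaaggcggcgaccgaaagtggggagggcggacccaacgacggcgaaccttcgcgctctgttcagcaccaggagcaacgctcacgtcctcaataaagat
YDJC (chr22:21630170-21630272, minus strand): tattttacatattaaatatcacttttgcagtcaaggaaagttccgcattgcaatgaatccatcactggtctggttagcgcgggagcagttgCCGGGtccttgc
LOC105374151 (chr3:149404791-149405040, minus strand): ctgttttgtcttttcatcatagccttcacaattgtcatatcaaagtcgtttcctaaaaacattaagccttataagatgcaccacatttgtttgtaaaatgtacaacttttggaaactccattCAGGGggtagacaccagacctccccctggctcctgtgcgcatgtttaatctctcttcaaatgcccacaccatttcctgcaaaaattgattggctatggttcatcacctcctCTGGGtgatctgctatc
CC2D2A (chr4:15469615-15469810, plus strand): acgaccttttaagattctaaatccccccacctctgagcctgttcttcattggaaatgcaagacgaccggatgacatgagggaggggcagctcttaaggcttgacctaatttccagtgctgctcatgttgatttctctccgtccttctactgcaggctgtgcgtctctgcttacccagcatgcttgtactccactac

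The peak before CELSR3, a cadherin of the planar cell polarity pathway, had a fold of 6.67 over input and a score, the −log10 of the caller's p-value, of 9.93. The peak before YDJC had a fold of 6.11, that at the non-coding LOC105374151 a fold of 5.46, and that before CC2D2A, a protein of the ciliary transition zone, a fold of 4.95. The printed strands held CNGGG 1, 1, 2 and 0 times in this order, and the opposite strands 0, 0, 1 and 1 times. A match on either strand was present in 78.5%, 70.1%, 90.2% and 85.9% of all 35116 promoter windows over the same stretch, so its presence does not set these 4 apart. The GC content was 63.1%, 44.7%, 41.6% and 50%.

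Intergenic peaks were a small share of both lists and the weakest kind of peak in each. They made up 5.74% of the lactate list (interval 5.54% to 5.95%) and 7.54% of the ddH2O list (7.37% to 7.71%). The ddH2O list was 1.99 times as long as the lactate list and held 2.61 times as many intergenic peaks. Cut to the 48104 peaks of highest score, as many as the lactate list holds, the ddH2O list was 4.69% intergenic (4.51% to 4.89%), so the order of the 2 conditions turned with the length of the list.

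The share intergenic rose as peaks became weaker. Cut into 10 bins of equal size by score, 1.497% of the lactate peaks in the bin of highest scores were intergenic, and 10.5% in the lowest bin. In the ddH2O list the corresponding shares were 1.56% and 14.6%. Among the best 1000 peaks, 8 were intergenic with lactate and 0 with ddH2O, which allows a share of up to 0.3% there (3 counts).

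A q-value below 0.05 was found for 678 intergenic lactate peaks (24.6%, 22.99% to 26.2%) and 2185 intergenic ddH2O peaks (30.3%, 29.2% to 31.3%). The same cut was met by 34.8% and 41.3% of intron peaks, 53.6% and 60.4% of exon peaks, and 65.0% and 70.6% of 3′ UTR peaks. The intervals of intergenic and intron peaks did not overlap in either list. The median fold of IP over input was 2.95 for intergenic against 3.24 for genic peaks in the lactate list, and 2.43 against 3.03 in the ddH2O list. Folds of weak peaks repeat in steps, and 24.8% of the lactate intergenic peaks shared 1 value, 2.21, while 28.0% of the ddH2O ones shared 1.82.

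Most intergenic peaks had the shortest length in the lists. A length of exactly 200 bases, the minimum, was found for 64.3% of intergenic lactate peaks and 61.8% of intergenic ddH2O peaks, so the median was 200 bases in both. Among 3′ UTR peaks the same length was found for 21.0% and 21.2%, and among intron peaks for 50.2% and 47.6%. Only 13 intergenic lactate peaks and 48 intergenic ddH2O peaks were longer than 1000 bases.

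The longest in both lists was the same region of chromosome 1, chr1:224011584-224014504 (2921 bases) with lactate and chr1:224011714-224014692 (2979 bases) with ddH2O, inside the RefSeq span of the transcribed pseudogene SEPTIN7P13. The next in length with lactate were chr19:40025653-40027366 (1714 bases), beside zinc finger genes, and chr7:11948053-11949725 (1673 bases), in the non-coding LOC124901589. With ddH2O they were chr15:30844932-30847255 (2324 bases), 17.1 kb from the pseudogene HERC2P10 and 56.1 kb from the nearest ddH2O genic peak (7.77 kb from a lactate one), and chr2:94219400-94221656 (2257 bases), on the protein-coding RefSeq gene LOC107985915 and 10.98 kb from the pseudogene BMS1P23. Pseudogenes and duplicated genes share near-identical copies, so the place of reads in such peaks is uncertain.

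Intergenic peaks recurred between the conditions less often than genic ones. Of the lactate intergenic peaks 942 (34.1%, 32.4% to 35.9%) overlapped any ddH2O peak by at least 1 base, and of the ddH2O intergenic peaks 913 (12.6%, 11.9% to 13.4%) overlapped a lactate peak. The same shares were 47.1% and 23.6% for introns, 71.6% and 34.5% for exons, and 79.4% and 43.8% for 3′ UTRs, and no interval of a genic region overlapped that of the intergenic peaks of the same list. Nearly all overlaps met another intergenic peak, and 12 lactate and 5 ddH2O peaks met a genic one. Shared intergenic peaks had a median fold of 3.76 against 2.73 for the others in the lactate list, and 3.85 against 2.43 in the ddH2O list. Restricted to a q-value below 0.05, 70.1% of lactate intergenic peaks were shared, close to the 70.2% of intron peaks, whereas in the ddH2O list 27.0% were shared against 39.6% of intron peaks.

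The share intergenic differed between chromosomes, and among chromosomes 1 to 22 and X the same ones stood highest and lowest in both lists. On chromosome 9, 217 of 1988 lactate peaks (10.9%) and 461 of 3982 ddH2O peaks (11.6%) were intergenic. On chromosome X they were 163 of 1551 (10.5%) and 371 of 2927 (12.7%), and on chromosome 6, 244 of 2909 (8.39%) and 587 of 5873 (9.995%). The lowest shares were on chromosome 15, with 60 of 2005 (2.99%) and 170 of 3912 (4.35%). Relative to the bases outside RefSeq genes, chromosome 19 was the densest, with 6.19 lactate and 16.1 ddH2O intergenic peaks per Mb, and chromosome 13 was the sparsest of the autosomes, with 0.704 and 2.27 per Mb. These counts kept the intergenic peaks that lie on RefSeq genes, so they do not match the bases exactly. Without the region of its largest cluster, chromosome 9 still had 9.96% and 10.95% intergenic peaks. How many copies of each chromosome these cells carry was not tested.

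Against RefSeq, 643 lactate peaks (23.3%) and 1663 ddH2O peaks (23.04%) called intergenic by the authors lay on a RefSeq gene. Of these, 360 and 990 lay on a long non-coding RNA, 247 and 567 on a protein-coding gene, 28 and 95 on a gene that RefSeq types as a pseudogene, and 17 and 45 on one typed as a transcribed pseudogene. The span with most of them was LOC124901589, a non-coding gene on chromosome 7 that held 23 lactate and 35 ddH2O intergenic peaks and 0 genic ones. LOC105378031 on chromosome 6 held 14 and 22. The protein-coding span of SH3BGRL2 came next with 12 and 17 intergenic peaks, followed by the non-coding LOC124902137 with 9 and 16 and the protein-coding FAAH2 with 9 and 12. These genes were named after their counts were seen.

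The textbook substrates of NSUN2 were almost absent from the intergenic peaks. Of the 443 RefSeq transfer RNA genes, 0 were overlapped by a lactate intergenic peak and 4 by a ddH2O one, and widening the genes by 100 bases gave 0 and 9 peaks. The 4 vault RNA genes in RefSeq were overlapped by 0 intergenic peaks in either list. Where the authors' annotation holds such a gene, a peak on it is genic and could not be counted here. Genic peaks on vault RNA genes were not counted. A count of 0 of 2761 peaks allows a share of up to 0.109% (3 counts), and 0 of 7219 a share of up to 0.0416%. Genic peaks touched a further 2 and 5 transfer RNA genes, so those genes carried few listed peaks of either kind.

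All 4 peaks on transfer RNA genes had the minimum length and few reads. At chr6:26556550-26556749 the peak covered 69 of 73 bases of TRK-CTT2-4, a lysine transfer RNA gene, with a fold of 3.64, a q-value of 0.0193, 0 lactate reads and 5 ddH2O reads in its window. The peak at chr21:17454835-17455034 shared 25 of 71 bases with the glycine gene TRG-GCC1-5, with the same fold of 3.64 and q-value, 1 lactate read and 5 ddH2O reads. TRK-TTT3-1 had a fold of 2.2003 at chr1:204506355-204506554, with 3 reads in each library, and TRN-GTT3-1 a fold of 1.82 at chr1:144419249-144419448, with 0 and 3 reads, both at a q-value of 1. The deposited P was between 0.125 and 0.1875 for the 4 windows, so no difference was detectable at this depth. Transfer RNA genes have many near-identical copies, between which reads cannot be told apart. The lists gave intergenic peaks on 2 small nucleolar RNA genes, both with ddH2O, namely SNORA105C (fold 2.66, 4 reads in each library) and LOC124903104 (fold 6.07, 5 and 16 reads). At LOC124903104 MAnorm's log2 ratio of lactate over ddH2O was -1.31, with a deposited MAnorm P of 0.0403. These values pass the unadjusted thresholds used further on for lower with lactate.

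The median distance from an intergenic peak to a genic peak was shorter than that from an intron peak to a peak of another gene. The median distance between edges to the nearest genic peak of the same list was 30.0 kb with lactate (quartiles 10.6 and 95.7 kb) and 19.6 kb with ddH2O (7.77 and 57.0 kb). The nearest peak of another gene was at a median of 72.0 and 52.6 kb from intron peaks, 36.8 and 26.6 kb from exon peaks, and 30.3 and 22.2 kb from 3′ UTR peaks. Within 1 kb of a genic peak lay 2.101% of lactate and 2.87% of ddH2O intergenic peaks, within 10 kb 24.0% and 31.2%, and within 100 kb 75.7% and 82.1%. The denser ddH2O list has shorter distances for every kind of peak.

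Near genes, intergenic peaks were mostly on the 3′ side. The intergenic peaks have no strand, so the side was taken from the strand of the nearest genic peak's gene. Within 1 kb, 47 of 58 lactate peaks (81.03%, 69.1% to 89.1%) and 154 of 207 ddH2O peaks (74.4%, 68.0% to 79.9%) lay downstream. Between 1 and 5 kb it was 71.8% and 72.2%, between 10 and 50 kb 59.9% and 58.3%, and beyond 100 kb 43.7% and 49.6%. The interval beyond 100 kb included 50% in the ddH2O list (46.9% to 52.3%) and lay under it in the lactate list (39.96% to 47.4%). Grouped peaks weigh on this lactate share. The 35 lactate peaks nearest to VTA1, for example, all lay beyond 100 kb, with 0% downstream. The share without such groups on either side was not computed.

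Within 10 kb the nearest genic peak was in a 3′ UTR for 41.9% of lactate and 37.9% of ddH2O intergenic peaks. The side was therefore also taken from the nearest end of any gene with a genic peak, for the peaks outside every RefSeq gene. Within 10 kb of such an end 62.8% of lactate (59.4% to 66.1%) and 60.3% of ddH2O peaks (58.3% to 62.3%) were downstream, and beyond 100 kb 46.9% and 50.1%. The excess on the 3′ side was smaller by this measure, though the intervals within 10 kb lay above 50% in both lists. It also did not rise toward the gene: within 1 kb 60.9% (51.7% to 69.3%) and 55.9% (50.7% to 60.9%) were downstream, and between 5 and 10 kb 66.0% (60.4% to 71.1%) and 63.0% (59.7% to 66.2%).

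Peaks near genes were also stronger and recurred more. A q-value below 0.05 was found for 30.0% of lactate intergenic peaks within 10 kb of a genic peak against 22.5% beyond 100 kb, and for 34.5% against 25.1% in the ddH2O list, with intervals that did not overlap. Overlap with the other list fell from 44.3% to 24.7% and from 17.3% to 8.42% over the same range. Farther than 1 Mb from any genic peak lay 51 lactate and 75 ddH2O peaks, with a median fold of 2.21 and 1.82, of which 5 and 9 had a q-value below 0.05.

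Over both lists together, the gene whose genic peaks were nearest to the most intergenic peaks was ACO1 on chromosome 9. It encodes the cytosolic aconitase that also acts as an iron-responsive RNA-binding protein. ACO1 was nearest to 33 lactate and 54 ddH2O intergenic peaks, at a median of 324 kb and never on its downstream side. LINC01239, also on chromosome 9, was nearest to 30 and 46 at a median of 261 kb, and THSD7A, a membrane protein gene on chromosome 7, to 22 and 35 at a median of 121 kb. All 3 medians were above those of the whole lists, 30.0 and 19.6 kb. The order differed within single lists. VTA1 on chromosome 6 was nearest to 35 lactate and 0 ddH2O peaks, more lactate peaks than ACO1. RPS3AP23, also on chromosome 6, was nearest to 0 lactate and 48 ddH2O peaks, more ddH2O peaks than LINC01239. VTA1 and RPS3AP23 were named after their counts were seen.

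Intergenic peaks grouped along the genome. Joined where gaps were at most 10 kb, with at least 3 peaks a cluster, they formed 143 clusters with lactate, which held 599 peaks (21.7%, 20.2% to 23.3%), and 485 with ddH2O, which held 2147 (29.7%, 28.7% to 30.8%). The nearest other intergenic peak was at a median of 32.1 kb with lactate and 11.7 kb with ddH2O. With the 9980 peaks of both lists pooled there were 805 clusters, of which 668 (83.0%) held peaks of both lists. A stretch called in both lists was counted once per list here, so the pooling itself favours clusters with peaks of both.

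The largest cluster spanned 84.7 kb of chromosome 9 (chr9:22359803-22444519) and held 21 lactate and 28 ddH2O peaks. It ended 2.30 kb before the start of DMRTA1, a DM-domain transcription factor gene, and began 232 kb beyond the end of CDKN2B-AS1, the antisense RNA of a cell cycle inhibitor gene, with CDKN2B 350.5 kb away. It contained 0 genic peaks, and the nearest one lay in LINC01239, 230 kb away. Of its peaks 14 with lactate and 20 with ddH2O had a q-value below 0.05, and its median fold was 4.79 and 4.34, above the medians of all intergenic peaks. Its 33 merged peaks had M values, the log2 ratio of lactate over ddH2O density as normalized by MAnorm, from -2.204 to 3.23 with a median of -0.02, and 15 were above 0.

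The cluster also held several of the strongest intergenic peaks of both lists. The highest score, and 1 of the 3 highest folds, in the ddH2O list were at chr9:22370480-22372430 (score 94.8, fold 24.3), where the lactate list had a fold of 19.1 and a score of 60.3. The neighbouring lactate peak chr9:22369469-22370322 had the second highest lactate score, 69.1, with a fold of 14.6. Close to DMRTA1, the peak at chr9:22439410-22440333 had a fold of 26.95 with ddH2O and 21.8 with lactate, second in both lists by fold. Each of these stretches was therefore found in both conditions.

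The other 4 of the 5 largest clusters were shorter, and their highest folds were lower. On chromosome 17, 10 lactate and 15 ddH2O peaks lay over 36.4 kb (chr17:32386818-32423185), 4.93 kb beyond the end of ZNF207, a spindle assembly factor gene, with the pseudogene NUDT15P2 4.90 kb beyond it and the start of PSMD11, a proteasome subunit gene, 21.3 kb away. Unlike the cluster on chromosome 9, it also contained 2 lactate and 3 ddH2O genic peaks. On chromosome 10, 13 and 11 peaks lay over 46.4 kb (chr10:21293558-21339967) between the start of NEBL, the gene of the sarcomere protein nebulette, 0.507 kb away, and LINC02643, 0.265 kb away. On chromosome 7, 11 and 13 peaks lay over 34.6 kb (chr7:11986286-12020884), 154 kb before the start of THSD7A and inside LOC124901589. On chromosome 11, 10 and 13 peaks lay over 37.6 kb (chr11:125794449-125832026) between PATE3 and PATE4, of the prostate and testis expressed family, with median folds of 5.05 and 5.50. Median M values of the 4 clusters, in this order, were 0.47, 0.19, 0.10 and -0.32.

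The remaining peaks of highest score or fold were spread over other chromosomes. The highest lactate score, 81.2, was at chr19:40025653-40027366 with a fold of 12.2, 0.893 kb downstream of ZNF780B and 4.61 kb beyond the end of ZNF546, both zinc finger genes, and 0.447 kb from LOC390933. The next after chromosome 9, 68.4, was at chr1:193258804-193260032 with a fold of 6.42, 3.99 kb from CDC73, which encodes the tumour suppressor parafibromin of the PAF1 complex. With ddH2O the scores next to that on chromosome 9 were 92.2 at chr6:141770558-141771302, in the non-coding LOC105378030, and 80.6 at chr6:12301517-12302429, 4.32 kb downstream of EDN1, the gene of the vasoconstrictor endothelin-1. The highest fold with lactate, 24.4, was at chr2:130070809-130071292, 2.24 kb downstream of POTEF, which has near-identical copies, and 21.7 was found for the longest peak in SEPTIN7P13. With ddH2O the highest fold, 28.5, was at chr1:165918129-165919033, 6.51 kb downstream of UCK2, a uridine-cytidine kinase gene.

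For lactate against ddH2O, few intergenic merged peaks passed the thresholds by the deposited values, and the reads of intergenic windows were sparse. Of the 9038 merged peaks, 1818 were found with lactate only, 6304 with ddH2O only and 916 with both. The median window of 2000 bases held 1 lactate and 4 ddH2O reads, against 5 and 7 over all merged peaks, and 41.1% of the intergenic windows had 0 lactate reads. The median M was -1.12, against -0.50 over all merged peaks. Among the 1291 intergenic windows with at least 20 reads in all (14.3%) the median M was -0.10, and among the 916 found in both lists 0.13.

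With the deposited values, 309 intergenic merged peaks (3.42%) were higher with lactate at M over 1 and P below 0.05, beside a background of 4.59% of all merged peaks. Lower with lactate, at M under -1, were 803 (8.88%), beside a background of 11.5%. The deposited P compares the 2 libraries, as does the binomial P used further on. Both shares were under the background over all windows, most of which held few reads. Among the windows with at least 20 reads the share called higher was above the background and the share called lower was close to it: 143 of 1291 intergenic ones (11.1%) were higher, beside a background of 7.27%, and 242 (18.7%) were lower, beside a background of 18%. With a Benjamini-Hochberg adjusted P below 0.05 over all merged peaks 21 (0.232%) were higher, beside a background of 0.34%, and 26 (0.288%) were lower, beside a background of 1.2%.

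The direction of the calls depended on the scaling. MAnorm scales by a line fitted on peaks that both lists share, and the deposited M was the log2 ratio of the recovered reads (plus 1) with a line in the mean log2 density (A), of slope 0.17 and intercept -0.20, added to it. With reads scaled instead by each library's total over the windows, MT-RNR2 and MALAT1 left out, and a two-sided exact binomial test, 1647 intergenic merged peaks (18.2%) were higher, beside a background of 16.7%, and 390 (4.32%) were lower, beside a background of 5.16%. Of the called intergenic peaks 27.8% were higher by the deposited values and 80.9% by the library sums. Over all merged peaks these shares were 28.6% and 76.4%, so the turn was not particular to intergenic peaks. The majority turned in the windows with at least 20 reads too, where by library sums 267 (20.7%) were higher, beside a background of 15.7%, and 103 (7.98%) were lower, beside a background of 7.43%. Over all windows, called in the same direction by both scalings were 307 higher and 390 lower of 9038. The same held for 5319 higher and 5998 lower of all 116484 merged peaks. The 1818 found with lactate only had a median of 5 lactate and 0 ddH2O reads, and 1349 of them were called higher by the library sums, a direction which the choice of peaks in 1 list favours.

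Among the 10 intergenic merged peaks with the highest A, 4 were called higher and 0 lower by the deposited values, and only 2 of the 4 calls held with library sums. The first, chr19:40025653-40027383 beside ZNF780B, had 516 lactate and 468 ddH2O reads, an M of 1.28 and a P of 2.1e-23, the smallest among the intergenic peaks called higher. Relative to the library sums its log2 ratio was 1.00, so it remained at the edge of the threshold. At chr1:193258769-193260032 beside CDC73 there were 334 and 323 reads (M 1.09, P 1.6e-12), and in the neighbouring chr1:193260325-193260983 there were 240 and 220 (M 1.08, P 2.0e-09). Both were called by the deposited values and lay just under a log2 ratio of 1 by library sums, at 0.91 and 0.99. At chr9:22370476-22372430, in the largest cluster, 284 and 250 reads gave an M of 1.17 and a P of 5.8e-12, and by library sums a log2 ratio of 1.05. The raw reads of these 4 windows were similar in both libraries, and their M values rest on the scaling.

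The other 6 were not called. At chr9:22369326-22370322 there were 272 lactate and 315 ddH2O reads (M 0.80), at chr2:94219236-94221712 on LOC107985915 205 and 212 (M 0.88), and at chr6:141770550-141771302 in LOC105378030 187 and 231 (M 0.62). More ddH2O reads were found at chrX:102915370-102915793 in the non-coding LINC00630, with 218 against 519 (M -0.20). The window at chrX:76178370-76178569, 0.055 kb beyond the end of PBDC1, had 220 against 744 (M -0.66), but it also held bases of a genic peak of PBDC1. At chr17:22523282-22523618 there were 175 against 447 reads (M -0.35) on MTRNR2L1, a nuclear copy of MT-RNR2, which is among the most heavily read RNAs of both IP libraries, so the place of these reads is uncertain.

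Peaks called lower rested on fewer reads. The smallest P was 1.3e-06 at chr20:30625880-30626782, in the transcribed pseudogene LOC112268265, with 2 lactate and 53 ddH2O reads (M -3.92). At chr11:107291621-107292609, in the non-coding LOC105369477 and 33.8 kb downstream of CWF19L2, there were 3 and 44 reads (M -3.23, P 1.5e-05). Both were also called lower by library sums.

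Few of the windows included part of a genic peak. Of the 9038 intergenic windows 264 (2.92%) held a base of a genic peak of either list. Without them 300 (3.42%) were higher and 754 (8.59%) lower by the deposited values, beside backgrounds of 4.59% and 11.5% of all merged peaks. By library sums 1619 (18.5%) were higher and 369 (4.21%) lower, beside backgrounds of 16.7% and 5.16%. Of the 264 windows themselves 9 (3.41%) were higher and 49 (18.6%) lower by the deposited values. By library sums 28 (10.6%) were higher and 21 (7.95%) lower, so the majority turned here as it did over all merged peaks. The 264 windows held a median of 10 lactate and 17 ddH2O reads, against 5 and 7 over all merged peaks. Whether reads of genes outside their called peaks entered the other windows was not tested.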

How the data were processed

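RIP-seq libraries of PANC-1 cells (1 IP and 1 input per condition) were analysed from the deposited tables. The submitters' processing notes name fastp 0.20.1, HISAT2 2.1.0, MACS2 2.2.7.1, bedtools 2.29.2, HOMER 4.11.1, DiffBind and GRCh38. The authors called peaks per library and deposited for each the fold (a ratio to input), the −log10 of the p-value, the q-value and a transcript region. The authors also deposited MAnorm's log2 ratio (M), the mean log2 density as a score (A), a P-value and the normalized signal of each IP per merged peak. Coordinates are counted from 1, and 97.2% of 116343 protein-coding peaks lay on the RefSeq span of their own gene in GRCh38.p14.

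Peaks were compared by overlaps of at least 1 base (bedtools 2.31.1) and distances between edges. Reads per window of 2000 bases were computed back from M and A, and the step was tested on simulated data. The thresholds of a fold over 2 and P below 0.05 are those the study's methods give for differential genes, and none is given there for merged peaks. With 1 library per group, the deposited P and the exact binomial P compare the reads of 2 libraries and not the conditions. Regions named are the 10 merged peaks of highest A, the 3 of smallest P in each direction, the 5 largest clusters, the 3 peaks of highest score, fold and length per list, peaks on transfer or vault RNA genes, their flanking genes and the 3 genes nearest to most peaks. Of these, 1 region is not reported here. The members, lists and rules were chosen with earlier results of these data known. Alternatives were other q-values, folds, overlaps, gaps, annotation, distances, adjusted P and scaling. The inputs have no table of their own among the files and entered only through the fold and score. No per-sample column was left unused. Software was Python 3.11.15, pandas 2.3.3, numpy 2.4.6, matplotlib 3.10.9 and scipy 1.17.1.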

Additional observations from a re-analysis of the deposited data

How the results depend on the processing

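No paired analysis was possible because each group has a single library and nothing was tested over samples. Of the 49 alternatives, 11 stayed within the interval of the value reported or within 1.5 times the count, and 38 moved. No single value changed sign, but 2 comparisons turned: the order of the conditions in the share intergenic at equal list size, and the majority of calls, 27.8% higher by the deposited values and 80.9% by library sums. The majority turned over all merged peaks as well, with 28.6% and 76.4% higher. The share intergenic (5.74% with lactate, 7.54% with ddH2O) was 3.30% and 4.70% at a q-value below 0.05, 3.67% and 4.59% at a fold of at least 4, 4.94% and 6.29% by bases covered, and 7.05% and 9.03% where intergenic meant outside every RefSeq gene. With as many ddH2O peaks as in the lactate list it was 4.69% for ddH2O. The share of intergenic peaks found in the other list became 20.2% and 7.72% where 50% of both peaks had to overlap, and 70.1% and 27.0% at a q-value below 0.05. At that q-value the median length was 309 and 322 bases, the median fold 4.81 and 4.25, and the median distance to a genic peak 26.0 and 16.5 kb. That distance was 16.2 and 18.2 kb to genic peaks of either list, and 53.3 and 30.0 kb to peaks in exons and UTRs only. The share in clusters was 15.6% and 20.7% for gaps of 5 kb, 34.3% and 47.2% for 50 kb, and 39.3% and 48.1% for at least 2 peaks. Transfer RNA genes widened by 100 bases met 9 ddH2O peaks in place of 4. The 309 higher merged peaks became 21 with an adjusted P, 134 at a fold over 4 (1.48%, beside 1.77% of all), 1647 by library sums and 143 with at least 20 reads (11.1% of 1291, beside 7.27% of all merged peaks with as many reads). The 803 lower ones became 26, 601 (6.65%, beside 6.51% of all), 390 and 242 under the same alternatives. With at least 20 reads and library sums together, 267 were higher and 103 lower. The 267 lie within 1.5 times of the 309 in count only, being 20.7% of 1291 windows against 3.42% of 9038. Equal list sizes, windows without a genic peak and the minimum of 20 reads, alone or with library sums, were chosen after seeing the data. Other scalings of the 2 IP libraries were not run, and depth limits every call on windows of a few reads.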

Other observations

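Counted in bins of 1 Mb, the intergenic peaks of both lists lay in 2121 bins, and 49 bins with 20 or more peaks held 15.6% of all of them. The fullest bin was not the one with the largest cluster. It lay on chromosome 6, from 141 to 142 Mb, and held 34 lactate and 61 ddH2O intergenic peaks beside 0 lactate and 1 ddH2O genic peak. The RefSeq non-coding genes LOC105378030 and LOC105378031 overlap this stretch. The bin of the largest cluster, from 22 to 23 Mb of chromosome 9, came next with 30 and 46 intergenic peaks beside 12 and 18 genic ones. On chromosome 19, from 39 to 40 Mb, 22 and 41 intergenic peaks stood among 78 and 100 genic ones, so dense groups were found both where genic peaks were few and where they were many. On chromosome X, from 57 to 58 Mb, 13 and 28 intergenic peaks stood beside 1 and 7 genic ones. These bins were chosen after their counts were seen.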
